A study of Rattus norvegicus with 4 samples.

Results

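The listed transcripts of Prkcd and Src, a pair of signalling kinases, had fewer reads in the hippocampus of rats given fluoxetine than of rats given vehicle. The tissue was taken 40 days after dosing ended. Prkcd encodes protein kinase C delta and Src encodes the tyrosine kinase of the same name. Their members here are every row of the deposited transcript table that carries either symbol, which are 9 transcripts of Prkcd and 1 of Src, or 10 of 830 transcripts and 2 of 474 genes. The table lists only transcripts that passed the authors' thresholds on p and fold change for fluoxetine against vehicle, so that the members were selected on this very contrast, by their reads in the 4 samples compared here. The difference between the groups is therefore a description, and no p-value is given for either gene.

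Male Wistar rats gave 2 fluoxetine and 2 vehicle samples, with the hippocampal tissue of 2 rats pooled in every sample. Fluoxetine, which blocks the serotonin transporter, was given by gavage at 12 mg/kg per day from postnatal day (PND) 67 to PND 88, vehicle was methylcellulose at 1%, and all rats were killed at PND 128. Tissue was punched from frozen brain slices, so that a sample can hold neighbouring tissue. In such bulk samples, fewer cells of a type and less RNA per cell cannot be told apart. Reads in the listed transcripts added up to between 138314 and 162734 per sample, which was 1.03 to 1.17% of library totals between 12512585 and 14080347 reads. Across the 830 listed transcripts, 0 had an adjusted p under 0.05 from edgeR and 0 from DESeq2. At an unadjusted p under 0.05, edgeR gave 49 higher and 147 lower transcripts, and DESeq2 gave 0 higher and 10 lower. All were selected on this same contrast and many share reads. These p-values therefore lack their usual meaning, and nothing is read from the counts. Of 15 marker genes of hippocampal pyramidal and granule cells, the table lists Wfs1, Pou3f1 and Nov, whose summed normalized reads were 5442 and 11362 in the fluoxetine samples and 5106 and 6637 in the vehicle samples.

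Protein kinase C enzymes attach phosphate to serine and threonine. Most are switched on by diacylglycerol, which phospholipase C releases at the membrane when receptors coupled to Gq are active. Protein kinase C delta belongs to the members that need diacylglycerol but not calcium, and in the brain it is best known for its abundance in relay neurons of the thalamus. Src sits on the inner face of the membrane, attaches phosphate to tyrosine and is known in neurons for raising currents through NMDA-type glutamate receptors.

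The study designed a pair of primers for each gene to measure its RNA by quantitative PCR in other rats, whose values were not analysed here. They are shown because they define which Prkcd and Src RNA that assay reads, each 5′ to 3′ in lower case.
Prkcd forward primer: gcctttgtcctgaatgtgg
Prkcd reverse primer: ccttcctcacccatctcatc
Src forward primer: ggaatcagagcggctacttc
Src reverse primer: tttcacatttaggcccttgg

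Prkcd is read from the minus strand of chromosome 16 in the rat build rn4, so that its 3′ end lies at the lower coordinate. Its listed transcript with the most reads, ENSRNOT00000025858, has 19 exons and 2742 bases of exon between positions 5954206 and 6030380. This transcript had 158 and 87 reads in fluoxetine samples 1 and 2, and 215 and 276 reads in vehicle samples 1 and 2. Both fluoxetine samples lay below both vehicle samples, and fluoxetine sample 2 was the lowest. Reads were scaled between samples by TMM, a method that assumes the typical listed transcript to be unchanged. Yet the table holds only transcripts that passed thresholds on this contrast, and after scaling their median log2 fold change was 0.49. The assumption is thus not met here, and the normalized reads and their fold changes depend on it. Normalized reads of ENSRNOT00000025858 were 157 and 77.6 in fluoxetine against 231 and 293 in vehicle. The group means were 117 ± 56.2 and 262 ± 43.9 normalized reads (SD, n = 2 samples per group), a log2 fold change of -1.16 with a standard error of 0.55. Vehicle was thus 2.23-fold higher than fluoxetine, and the difference between the means was larger than either SD. The log2 fold change was -1.75 without fluoxetine sample 1 and -0.87 without fluoxetine sample 2.

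All 9 listed Prkcd transcripts had both fluoxetine samples below both vehicle samples. This order held for 341 of all 830 listed transcripts (41.1%) and the opposite order for 30.6%. The table was chosen for a difference in either direction, which favours groups that lie apart, so nothing is read from the count. The transcripts overlap and a read can count for several of them, so they are not 9 separate measurements. ENSRNOT00000025858 and NM_133307 (18 exons, 2710 bases) even share all 4 counts, although the former reaches 54637 bases further at the 5′ end. The 32 bases and 1 exon that set their totals apart thus went with no net gain of reads in any sample. Over the 9 transcripts, the log2 fold change ran from -1.41 to -1.15 with a median of -1.22. Of their names, 5 are those of rat and 2 those of mouse Ensembl transcripts.

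**Figure D1:**
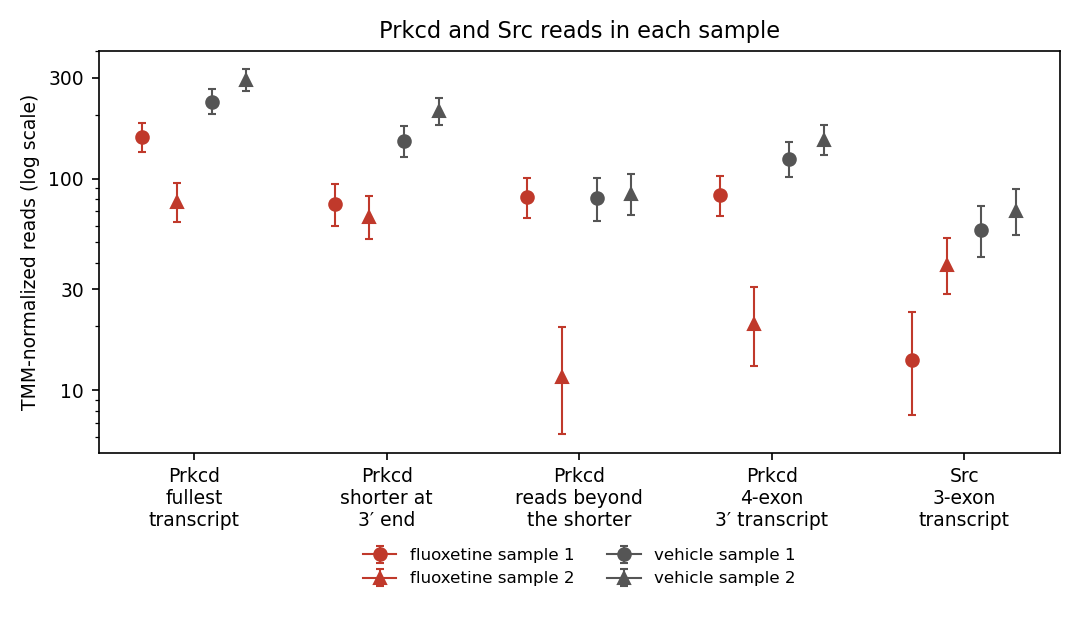
TMM-normalized reads (log scale) of 3 Prkcd transcripts, of the net Prkcd reads of the fullest beyond the shorter transcript, and of the Src transcript. Colour marks fluoxetine (red) or vehicle (grey), and shape marks sample 1 (circle) or sample 2 (triangle). Bars show the exact 95% Poisson interval, which covers counting error only and takes the net reads as a plain count. For Prkcd fluoxetine sample 2 is the lowest point in each column, whereas for Src fluoxetine sample 1 is.

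How far the fluoxetine samples differed from each other varied with the Prkcd transcript. ENSRNOT00000067639 (20 exons, 2173 bases) starts at 5957670 and so stops 3464 bases short of the 3′ end of the fullest transcript. It had 76 and 74 reads in the fluoxetine samples and 140 and 196 in the vehicle samples. Here the fluoxetine samples were almost equal, and both lay well under vehicle. Their normalized means were 70.8 ± 6.75 and 179 ± 40.8 (SD, n = 2 each), a log2 fold change of -1.34 with a standard error of 0.46. The opposite was seen in ENSMUST00000140701, a 4-exon transcript of 1243 bases that covers only the 3′ part of the gene from 5954537 to 5959274. It had 84 and 23 reads in the fluoxetine samples and 115 and 144 in the vehicle samples. Fluoxetine sample 1 was 4.07-fold higher than fluoxetine sample 2 in normalized reads of this transcript, against 1.14-fold in ENSRNOT00000067639.

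**Figure D2:**
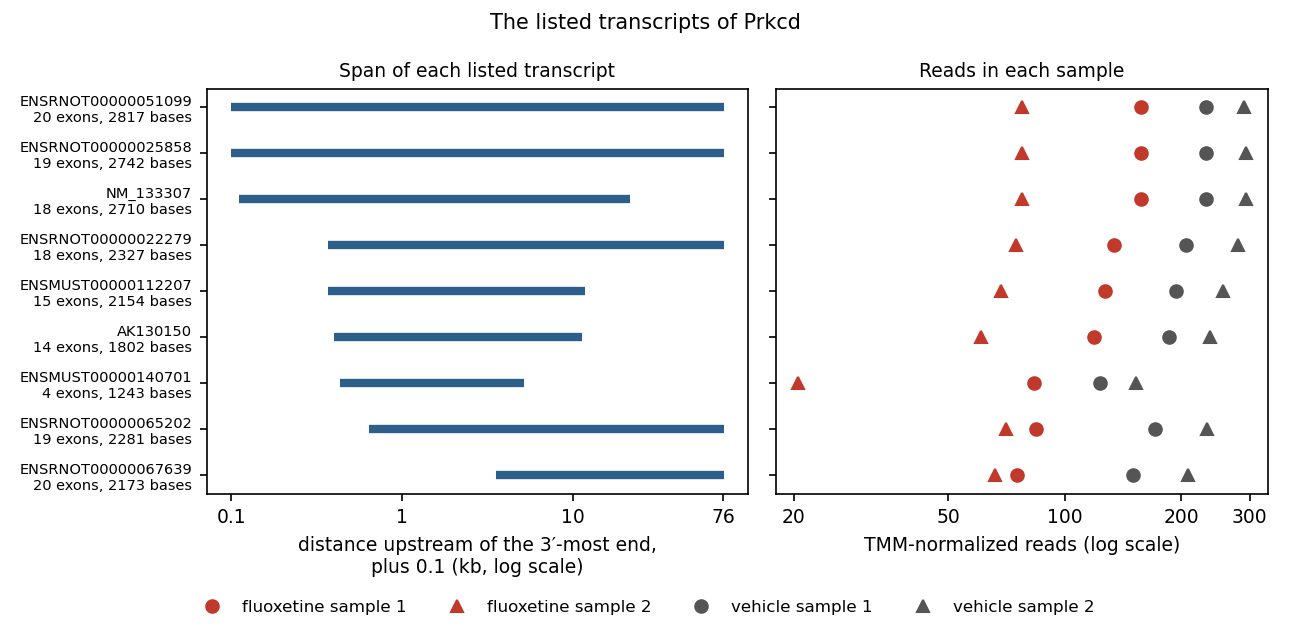
Left, the span of each listed Prkcd transcript as distance in kb upstream of the 3′-most end (log scale, 0.1 added); right, its TMM-normalized reads in each sample (log scale), coloured by fluoxetine (red) or vehicle (grey) and shaped by sample 1 (circle) or sample 2 (triangle). The red symbols lie close together in the 2 lowest rows, whose transcripts end furthest from the 3′ end, and apart in the others.

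The fullest transcript had 82 reads more than ENSRNOT00000067639 in fluoxetine sample 1 and 13 more in fluoxetine sample 2, whereas vehicle had 75 and 80 more. These are net differences, since ENSRNOT00000067639 has 20 exons against 19 and may hold bases that the fullest transcript lacks. They are called the reads beyond the shorter transcript. In these reads, fluoxetine sample 1 was at the level of vehicle, and only fluoxetine sample 2 was lower. They made up 51.9% of the Prkcd reads in fluoxetine sample 1 (95% Wilson interval 44.2 to 59.6%) and 14.9% in fluoxetine sample 2 (8.95 to 23.9%). In the vehicle samples they made up 34.9% (28.8 to 41.5%) and 29.0% (24.0 to 34.6%). The vehicle shares thus lay between those of the fluoxetine samples, whose intervals did not overlap with each other. The intervals take the net difference as a plain count. That holds only if every read of the shorter transcript also counts for the fullest one, which is not known. They cover counting error only, since reads were not marked as separate molecules.

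Transcripts of intermediate length show at which step these reads were lost. From ENSRNOT00000025858 to ENSRNOT00000065202, whose 3′ end lies 540 bases further upstream, the count dropped by 73 reads in fluoxetine sample 1, 8 in fluoxetine sample 2, 56 in vehicle sample 1 and 57 in vehicle sample 2. Over the next 2924 bases, to the end of ENSRNOT00000067639, it dropped by 9, 5, 19 and 23 reads. This step takes away a net 108 bases of exon. Most of the gap between the fluoxetine samples therefore came with the first of these steps. The table gives no exon positions. The first step takes away a net 461 bases of exon, and where along the gene all of these lie is not known. It passes through ENSRNOT00000022279, whose 3′ end lies 267 bases upstream but which has 415 fewer bases of exon. Some of those bases therefore lie outside the 3′ end, and some of these reads may too. Up to this transcript the count dropped by 23, 3, 24 and 12 reads, in the same order of samples. From there to ENSRNOT00000065202 the count dropped by 50, 5, 32 and 45 reads, over 273 bases and a net 46 bases of exon.

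A similar share was taken in every other gene of the table with a suitable shorter transcript. That transcript had to end at least 1000 bases short of the fullest one at the 3′ end, with at least 50 reads beyond it. It did not have to reach the 5′ end, as the shorter Prkcd transcript does, so reads beyond it can also lie upstream. The shares of other genes are therefore not strictly like that of Prkcd. In these 21 genes, the shares of the fluoxetine samples differed by a median of 9.71 percentage points, and those of the vehicle samples by 3.84. For Prkcd the differences were 37.0 and 5.90 percentage points. Only Reps2, with 59.5, had a larger difference between the fluoxetine samples. The share was the higher one in fluoxetine sample 1 for 14 of the 21 genes.

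**Figure D3:**
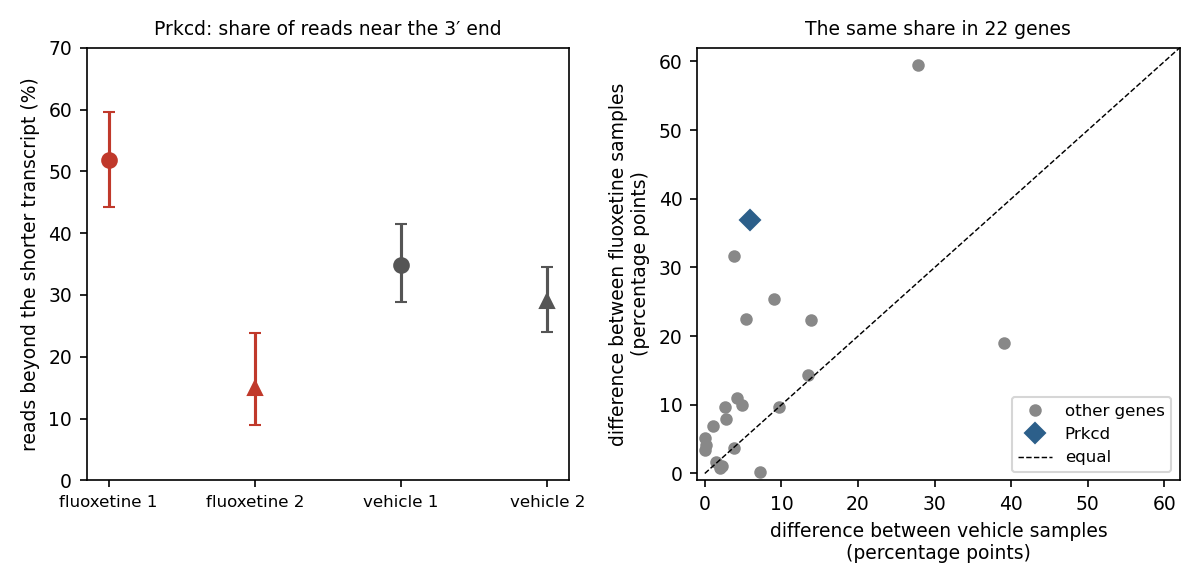
Left, the net percentage of Prkcd reads of the fullest beyond the shorter transcript in each sample, with 95% Wilson intervals that take it as a plain count. Right, the absolute difference of such a share between the fluoxetine samples against that between the vehicle samples, in percentage points. It is shown for Prkcd (diamond) and 21 other genes, whose shorter transcript need not reach the 5′ end. A dashed line marks where both are equal. Prkcd lies at 37.0 between fluoxetine samples and 5.90 between vehicle samples.

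Src had a single listed transcript, ENST00000477475, on the plus strand of chromosome 3 in rn4 from 148167775 to 148169052. It carries a human Ensembl name and has 3 exons with 416 bases in all, so that its reads cover a short stretch of the gene. No longer Src transcript is listed, and only transcripts that passed the authors' thresholds are. The reads over the rest of the gene are thus not known here. The values stand for this short stretch and not for Src as a whole. It had 14 and 44 reads in fluoxetine samples 1 and 2, and 53 and 66 reads in vehicle samples 1 and 2. Fluoxetine sample 1 stood apart from the other 3 samples. In normalized reads, the levels were 13.9 and 39.2 in fluoxetine and 57.0 and 70.1 in vehicle. The group means were 26.6 ± 17.9 and 63.5 ± 9.29 (SD, n = 2 each), with a log2 fold change of -1.25 and a standard error of 0.65.

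For Src, much of the difference came from fluoxetine sample 1. The exact 95% Poisson interval of its normalized reads ran from 7.61 to 23.3, below that of every other sample. The interval of fluoxetine sample 2, from 28.5 to 52.7, overlapped that of vehicle sample 1, from 42.7 to 74.5. Overlap of intervals is not a test of a difference, and none was run between these samples. The log2 fold change of Src was -0.69 without fluoxetine sample 1 and -2.31 without fluoxetine sample 2.

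Levels of the 2 genes can be compared only per length, for which the deposited normalized expression (NE, reads per length of transcript and per library size) was used. On this scale Src stood at 0.0239 and 0.0783 in the fluoxetine samples and at 0.0909 and 0.127 in the vehicle samples. The fullest Prkcd transcript stood at 0.0409 and 0.0235 in fluoxetine and at 0.0560 and 0.0804 in vehicle. Src had the higher NE in 3 of the 4 samples and Prkcd in fluoxetine sample 1. By mean NE, Src lay above 78.1% of the listed transcripts and the Prkcd transcripts above 68.9 to 75.5%.

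In their listed transcripts, both genes thus were lowest in fluoxetine, but in different samples. Of the fluoxetine samples, the second had 2.82-fold more Src than the first, whereas the fullest Prkcd transcript was 2.02-fold higher in fluoxetine sample 1. In vehicle, sample 2 was the higher one for both, by 1.23-fold for Src and 1.27-fold for Prkcd. To find the genes most like each kinase, the log2 normalized reads of 307 other listed genes were centred on their mean over the 4 samples and compared by the root mean square difference. Src ranked 105th from Prkcd and Prkcd 90th from Src, with a difference of 0.89 on the log2 scale.

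Nearest to Prkcd was Bmp3, a bone morphogenetic protein, with a root mean square difference of 0.12 over the 4 samples. Bmp3 had 74.5 and 46.4 normalized reads in the fluoxetine samples and 120 and 161 in the vehicle samples. Next came Pkib (0.13), an inhibitor of protein kinase A, Synpo2 (0.14), an actin-binding protein, Odz2 (0.15), the adhesion protein teneurin 2, and Samd10 (0.20). All 5 were lower in fluoxetine sample 2 than in fluoxetine sample 1, as Prkcd was. Nearest to Src was Dusp16, a phosphatase that acts on MAP kinases, with a difference of 0.077. Dusp16 had 15.9 and 46.4 normalized reads in the fluoxetine samples and 59.1 and 82.8 in the vehicle samples. It was followed by LOC100364938 (0.089), the vesicle membrane protein gene Tmem163 (0.11), Mtmr11 (0.13) and LOC688387 (0.14). All 5 had fluoxetine sample 1 as their lowest sample. These likenesses rest on 4 samples and were computed on the values that put the genes in the table. The neighbours were picked by pattern, so the order of samples they share with each kinase follows from that choice.

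**Figure D4:**
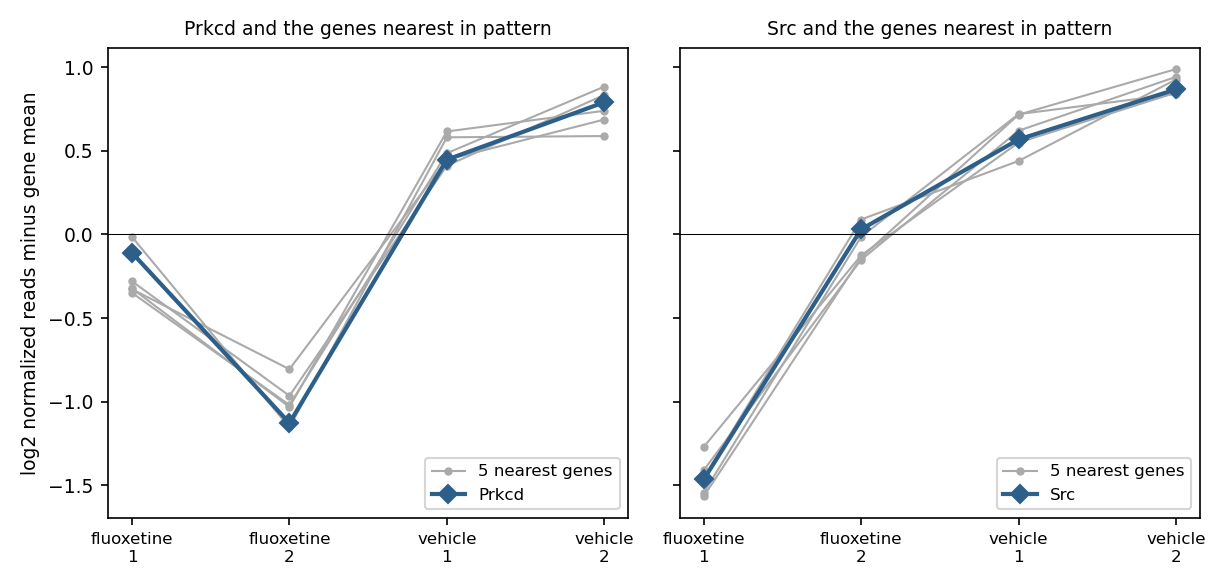
Log2 normalized reads in each sample minus the mean of the gene over the 4 samples, for Prkcd (left) and Src (right) in blue and for the 5 genes nearest to each in grey; lines join the values of a gene and imply no order of samples. The lowest point is fluoxetine sample 2 for Prkcd and its neighbours and fluoxetine sample 1 for Src and its neighbours, which were picked by this pattern.

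Among genes of diacylglycerol signalling, 3 of 53 others in a list of protein kinase C members, phospholipases, diacylglycerol kinases, receptors and targets were in the table. RGD1561955, now named Dgkh, encodes diacylglycerol kinase eta, which removes diacylglycerol by phosphorylation. It had 123 and 108 normalized reads in fluoxetine and 244 and 222 in vehicle, with no overlap and a log2 fold change of -1.01. Chn2 encodes beta-chimaerin, a Rac inactivator that binds diacylglycerol, and went the other way, with 54.7 and 74.0 normalized reads in fluoxetine and 33.3 and 39.3 in vehicle. Prkd3, a protein kinase D, had no reads in fluoxetine and only 4 and 2 reads in vehicle. The list thus held 1 higher and 2 lower genes, with a median log2 fold change of -1.01. Over all 540 listed genes and loci, 289 were higher and 251 lower, with a median of 0.53, and 40.9% had both fluoxetine samples below both vehicle samples.

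Of 42 other genes of the Src family, its partners and its substrates, 3 were in the table, and all 3 were lower in both fluoxetine samples, as were 40.9% of all listed genes and loci in this table selected on the contrast. In this list Tiam1, an activator of Rac, had 63.6 and 98.1 normalized reads in fluoxetine and 135 and 195 in vehicle. Ptrf, the caveolar coat protein cavin 1, had 16.9 and 9.81 in fluoxetine and 44.1 and 30.8 in vehicle. Cblb, a ubiquitin ligase that marks active tyrosine kinases for removal, had 11.9 and 2.67 in fluoxetine and 26.9 and 21.2 in vehicle. Tiam1 shared with Src the lower level in fluoxetine sample 1, while Ptrf and Cblb were lower in fluoxetine sample 2. The median log2 fold change of the 3 genes was -1.48, against 0.53 over all listed genes and loci.

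Of 59 other protein kinases, 15 were in the table, 6 of them higher and 9 lower. Over all 540 listed genes and loci, 289 were higher and 251 lower. Both fluoxetine samples lay below both vehicle samples in 8 of the 15 kinases and above them in 4. Over all listed genes and loci these orders held for 221 and 173. Those with the most reads were higher in fluoxetine. Rps6ka5, the histone kinase MSK1, had 256 and 146 normalized reads in fluoxetine and 170 and 93.5 in vehicle, with overlapping groups. Ephb6, an Eph receptor without kinase activity, had 174 and 150 in fluoxetine and 97.8 and 108 in vehicle, with no overlap. Alpk3, an alpha-kinase of muscle, was also higher, at 17.8 ± 1.29 against 4.80 ± 0.715 normalized reads (SD, n = 2 each). Lower were Pim1, a survival kinase, with 6.96 and 6.24 normalized reads against a widely spread 33.3 and 10.6, Nek8, a kinase of the cilium, at 2.38 ± 0.847 against 12.8 ± 3.13, and Eef2k, which slows translation, at 1.39 ± 0.558 against 11.7 ± 1.41 (SD, n = 2 each). The other listed kinases were Zap70, Ikbkb and Bub1, which were higher, and Amhr2, Alpk1, Flt4, Alpk2, Cdk1 and Prkd3, which were lower. In all, 11 of the 15 had fewer than 30 reads over the 4 samples, and 6 had no read in a whole group. The median log2 fold change was -2.38, against 0.53 over all listed genes and loci. It was -1.10 with those 6 genes bounded by giving the empty group 3 reads in total. Prkcd, with 736 reads in its fullest transcript, was the most deeply read of the kinases of this list that were lower.

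Since Prkcd is abundant in the thalamus, which borders the hippocampus, 20 other marker genes of thalamus and habenula were also looked up. The table lists 3 of them, Zic2, Synpo2 and Shox2, and for all 3 both fluoxetine samples lay below both vehicle samples, an order found in 40.9% of all listed genes and loci of this selected table. Zic2, a zinc finger transcription factor, had 57.6 and 94.5 normalized reads in fluoxetine and 169 and 139 in vehicle. Synpo2, also the third nearest gene to Prkcd in pattern, had 19.9 and 12.5 in fluoxetine and 35.5 and 46.7 in vehicle. Shox2, a homeobox transcription factor of thalamic neurons, had 13.9 and 13.4 in fluoxetine and 35.5 and 45.7 in vehicle. Their summed normalized reads were 91.4 and 120 in the fluoxetine samples and 240 and 232 in the vehicle samples. The other 17, among them Tcf7l2, Lef1 and Gbx2, are not in this selected table, so their values are not known here. The part of neighbouring tissue in the Prkcd result was not tested. Of 9 blood and vessel genes, the table lists Hbb and Hba-a2, the globins of red blood cells, whose summed normalized reads were 620 and 472 in fluoxetine and 700 and 1844 in vehicle. The globins thus stood highest in vehicle sample 2, as Prkcd and Src did by a smaller margin (1.27-fold and 1.23-fold over vehicle sample 1), and their part in the result was not tested.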

How the data were processed

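RNA-seq of 4 hippocampal samples was analysed, with groups and sample numbers taken from the sample titles and matched to the columns by treatment and number. Single 36 bp reads were mapped by the authors to rn4 (Illumina Analysis Pipeline, 1 mismatch at most, reads with a single position kept), who then used Genomatix software to count the reads falling in exons. These deposited counts are not normalized, and a read can count for several transcripts, so that 263 of the 830 listed transcripts share all 4 counts with another. The deposited NE value is a signal, which the authors divided by transcript length and data set size. Library totals were recovered from counts, lengths and NE. The table also holds the authors' p-values and fold changes, which were not used. Use of strand in this step was not given in the sources used here.

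Normalized reads, log2 fold changes and standard errors came from the quasi-likelihood test (glmQLFit, glmQLFTest) of edgeR 4.0.16 after TMM scaling (R 4.3.3, all 830 transcripts, no filter on low counts, treatment as the only term). DESeq2 1.42.0 was an alternative. Tallies, intervals and figures used matplotlib 3.10.9, scipy 1.17.1, pandas 2.3.3 and numpy 2.4.6 under Python 3.11.15. The fits were tested on simulated counts. A gene stands at its transcript with the most reads, then the longest. Named genes are both members, the 5 genes nearest to each in pattern (median of at least 10 normalized reads, 0 reads in no sample) and listed members of 6 gene lists, up to 6 per list with values. Reps2 was named after its values were seen, as were the Prkcd transcripts singled out and the comparison of shares of reads beyond a shorter transcript. The members and lists were chosen with earlier results of these data known. Gene names were matched to RefSeq (GRCr8, names only). The pools hold different rats, and with 2 of them in a group the spread is known only roughly.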

Additional observations from a re-analysis of the deposited data

How the results depend on the processing

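Prkcd kept a negative log2 fold change under 14 alternatives and Src under 10, and most moved by less than the spread between samples. With 1 sample left out, Prkcd ranged from -1.75 to -0.87 and Src from -2.31 to -0.69. At the library totals, which raised the median of all listed transcripts by 0.12 on the log2 scale, they were -1.08 and -1.09. For Prkcd, the reads beyond the shorter transcript gave -0.83, an alternative chosen after seeing the data. The count of transcripts with both fluoxetine samples lower fell from 341 to 191 with a filter of 10 reads in 2 samples, as fewer transcripts were tested. At 1 transcript per gene it fell to 219 with the scaling redone on those transcripts, against 221 at the main scaling. The count was 358 to 376 with 1 sample left out. The median of the protein kinase list ranged from -2.20 to -1.79, and that of the thalamus and habenula list from -1.59 to -1.09, with 1 sample left out. These omissions leave a group with a lone sample, which is assumed to vary like the other group. With the sample number as a replicate block, the log2 fold change was -1.23 for Prkcd and -1.37 for Src. The differences between samples 1 and 2 of either group correlated with r = 0.28 across 540 genes, which are not independent, and 2 pairs do not show whether the numbers pair the samples. The block allows no value for the count of transcripts. The low depth of Src, at 14 to 66 reads a sample, limits its values.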

Other observations

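Other genes differed between the fluoxetine samples in the share of reads beyond a shorter transcript, and not in the same direction as Prkcd throughout. Reps2, which acts in endocytosis, had 59.5% of its reads beyond the shorter transcript in fluoxetine sample 1 and 0% in fluoxetine sample 2, with 38.5% and 10.7% in the vehicle samples. Ddx5, an RNA helicase, had 48.5% in fluoxetine sample 1 and 80.1% in fluoxetine sample 2, with 75.5% and 71.7% in vehicle. In Eif4g1, a translation initiation factor, the shares were 15.5% and 40.9% in fluoxetine and 42.9% and 33.8% in vehicle. By contrast, Adcy1, which makes cyclic AMP, had shares of 57.5% and 52.3% in fluoxetine and 52.0% and 52.1% in vehicle, and Syn2, a synaptic vesicle protein, had 79.4% and 79.2% in fluoxetine and 72.1% and 79.3% in vehicle. These genes were named after their values were seen, and the cause of the differences was not tested.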
